A study of Mus musculus with 9 samples.

Results

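The FGF and ERK feedback genes described here were 10 of the 54232 genes in the count table. They were taken by gene symbol, through their Ensembl identifiers, from a list chosen with earlier results of these data known. The list held the ligand *Fgf4*, the receptors *Fgfr1* and *Fgfr2*, and the Sprouty inhibitors *Spry1*, *Spry2* and *Spry4*. It also held the phosphatases *Dusp4* and *Dusp6*, and the transcription factors *Etv4* and *Etv5*. Poly(A) RNA was sequenced from naïve mESCs and primed mEpiSCs at passage 5 (P5) and passage 15 (P15), with 2 libraries per state and passage, and from 1 library of mouse embryonic fibroblasts (MEFs), which had no replicate. All naïve and primed cells came from 1 ESC line, OG2, of C57 x CBA background, which carries GFP under the distal *Oct4* promoter. Naïve cells were grown in serum with LIF, primed cells were derived from them by culture in F/A medium (bFGF with Activin A), and both were kept on mitomycin C-treated MEF feeder cells. The labels do not say that the 2 libraries of a group came from separate cultures, so p-values measure only the spread between these libraries, which may be technical.

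FGFs are secreted ligands that bind receptor tyrosine kinases and drive the Ras, Raf, MEK and ERK kinases. Active ERK induces transcription of its own inhibitors, so that Sprouty and Dusp genes, and the ETS factors Etv4 and Etv5, are widely used as readouts of FGF signalling. In mouse pluripotent cells, Fgf4 made by the cells themselves moves them out of the naïve state, and inhibitors of MEK hold them there, whereas mEpiSCs are maintained with FGF and Activin. An FGF was thus added to the medium of the primed cells and not to that of the naïve cells, and state and medium cannot be told apart in this design.

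The naïve and primed libraries held 14378051 to 20985136 counts and the MEF library 25646547. Levels are given as CPM, the counts relative to a library size scaled by TMM, and per kilobase of exon where genes are compared with each other. All 8 naïve marker genes (*Zfp42*, *Esrrb* and others) were lower and all 8 primed marker genes (*Fgf5*, *Otx2* and others) higher in primed than in naïve cells at both passages. The 6 pluripotency genes summed to 2412 to 2606 CPM in naïve libraries, against 2.89 CPM in MEFs. Their sum was lower in primed cells, at 1199 and 1205 CPM in P5 and 1675 and 1655 CPM in P15 libraries. The 24 fibroblast marker genes were detected in every library. Their median was 11.7% of the MEF level in naïve P5, at least 17.8% in naïve P15, 10.2% and 10.7% in primed P5, and 20.5% and 22.6% in primed P15 libraries. Single genes lay between 0.671% (*Fbln5*) and 354% (*Dcn*), so that no single share of feeder RNA described all of them. Since these are bulk samples, fewer cells of a type and less RNA per cell cannot be told apart.

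The 250 bases upstream of the start site are shown for 3 genes. The ligand with the deepest fall at P15 (*Fgf4*) and a Sprouty gene (*Spry2*) were lower in primed cells at both passages. A phosphatase (*Dusp6*) was higher at both. The sequences are RefSeq sequences of GRCm38.p6, written 5′ to 3′ on the gene's strand. Capitals mark GGAA or its reverse complement TTCC, the core bound by ETS factors such as Etv4 and Etv5.
Fgf4, chr7:144861136-144861385, plus strand: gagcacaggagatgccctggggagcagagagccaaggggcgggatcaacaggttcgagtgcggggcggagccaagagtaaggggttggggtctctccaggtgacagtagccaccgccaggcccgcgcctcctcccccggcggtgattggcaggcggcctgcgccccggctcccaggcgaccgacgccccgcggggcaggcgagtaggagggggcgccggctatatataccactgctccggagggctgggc
Dusp6, chr10:99262981-99263230, plus strand: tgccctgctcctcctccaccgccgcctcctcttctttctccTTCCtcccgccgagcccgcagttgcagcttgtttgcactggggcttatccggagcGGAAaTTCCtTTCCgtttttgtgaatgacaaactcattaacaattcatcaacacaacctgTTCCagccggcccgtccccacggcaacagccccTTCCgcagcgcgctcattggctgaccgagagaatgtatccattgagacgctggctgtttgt
Spry2, chr14:105896820-105897069, minus strand: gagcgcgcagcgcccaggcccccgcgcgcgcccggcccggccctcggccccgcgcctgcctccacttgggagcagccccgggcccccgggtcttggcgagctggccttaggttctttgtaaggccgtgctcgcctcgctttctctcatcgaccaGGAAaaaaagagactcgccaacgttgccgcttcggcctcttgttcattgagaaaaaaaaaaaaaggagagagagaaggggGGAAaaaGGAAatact
The *Fgf4* window held 0 such cores and had a GC content of 71.2%, the *Dusp6* window held 6 at 56.4% GC, and the *Spry2* window held 3 at 62.4% GC. The median over 32851 RefSeq windows of the same length was 3 cores at 52.4% GC, and 93.4% of them held at least 1. Windows were found for 6 of the 10 genes (7 windows), of which 5 held the core. The longer motifs CCGGAAGT (ETS), TGANTCA (AP-1) and TGACGTCA (CRE), searched on both strands, were in none of the 7 and in 2.88%, 6.75% and 1.55% of all windows. The first of these contains the GGAA core, whose search was chosen after the longer motifs gave no match. These matches describe letters in a window and not binding.

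Primed cells did not shift these genes one way. At P5, 5 of the 10 were higher than in naïve cells (*Fgfr1*, *Fgfr2*, *Spry1*, *Dusp4* and *Dusp6*) and 5 were lower (*Fgf4*, *Spry2*, *Spry4*, *Etv4* and *Etv5*). The calls are from edgeR's quasi-likelihood test, adjusted by Benjamini-Hochberg over all genes tested, at a threshold of 0.01. At P15, 3 were higher (*Fgfr1*, *Dusp4* and *Dusp6*) and 6 lower (*Fgf4*, *Spry1*, *Spry2*, *Spry4*, *Etv4* and *Etv5*), and *Fgfr2* did not pass. The threshold was passed by 62.3% of the 16482 genes tested at P5 and by 56.6% of the 15733 at P15, so a call by itself sets these genes little apart. In the higher direction it was passed by 31.2% and 28.2% of genes, and in the lower direction by 31.1% and 28.4%. With a fold change of at least 2 added, 6 of the 10 passed at P5 (1 higher, 5 lower) and 3 at P15 (all lower), where 22.3% and 23.2% of all genes did. By direction, 13.5% of genes were higher and 8.85% lower by that rule at P5, and 12.2% and 11% at P15. The median absolute log2 fold change of the 10 genes was 1.11 at P5 and 0.79 at P15, beside 0.51 and 0.48 for all genes tested. All 10 had primed libraries that did not overlap the naïve ones at either passage, as did 84.6% of all genes at P5 and 81.9% at P15.

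**Figure D1:**
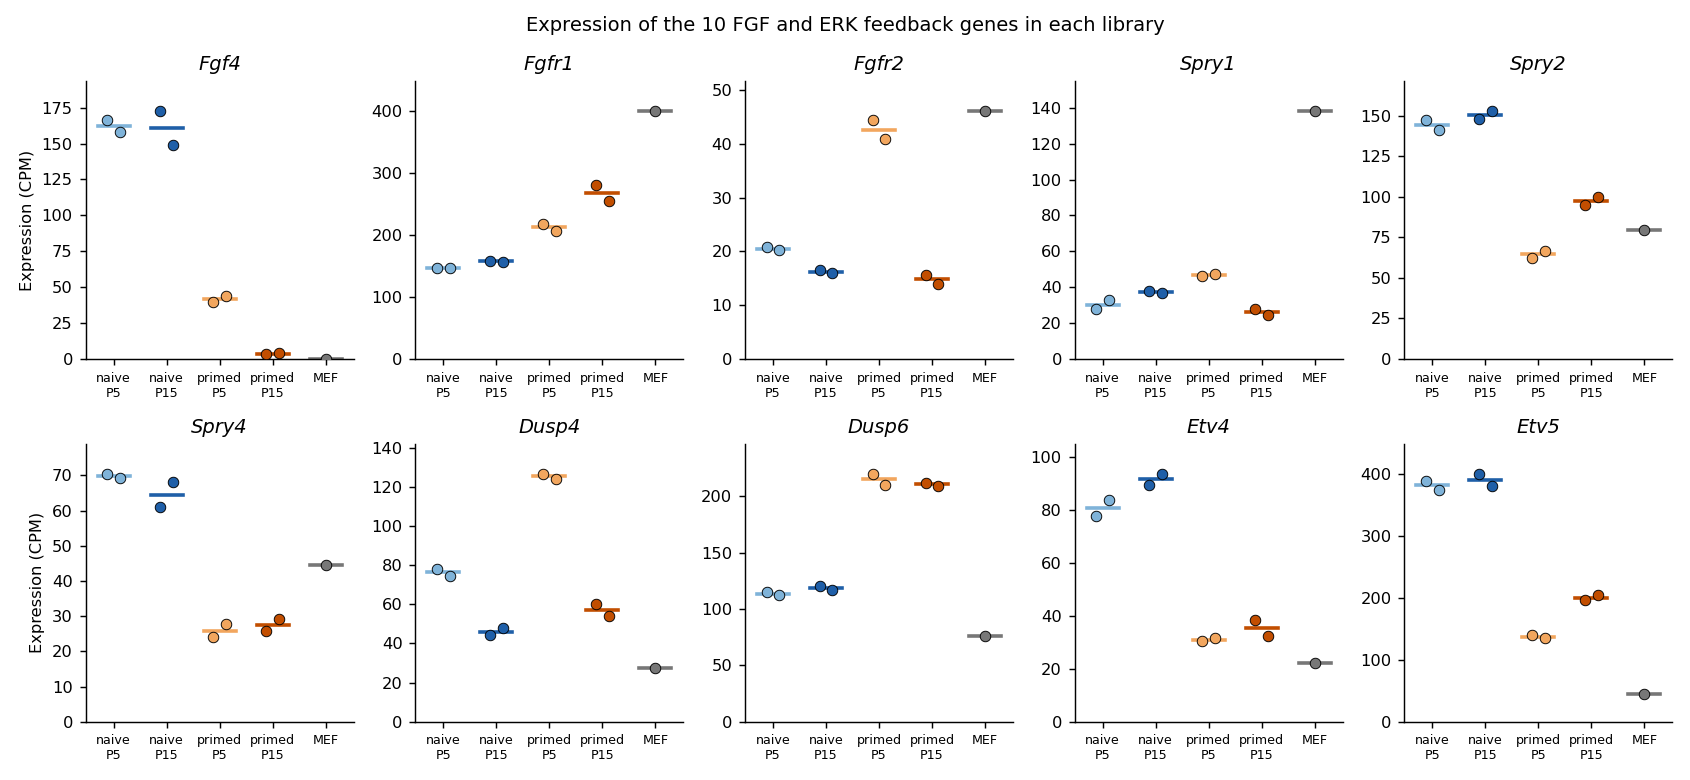
Expression (CPM) of the 10 genes in each of the 9 libraries, with 1 panel per gene, dots for libraries and lines for group means. *Fgf4* is near 160 CPM in all 4 naïve libraries (149 to 173) and below 4 CPM in both primed P15 libraries (3.33 and 3.98), whereas *Dusp6* is at 209 to 220.3 CPM in the 4 primed libraries and at most 120.4 CPM in the naïve ones.

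**Figure D2:**
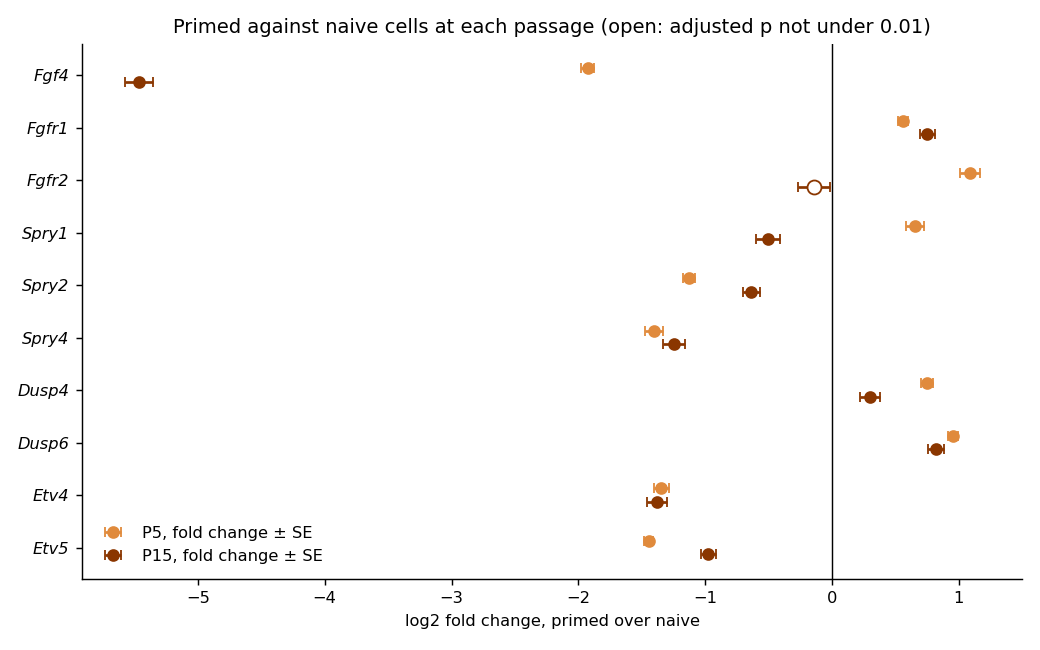
Log2 fold change of primed over naïve cells for each gene at P5 and P15, with bars for the standard error, and an open dot for an adjusted p not under 0.01. *Fgf4* lies farthest from 0 at P15 (−5.47), *Spry1* is on opposite sides at the 2 passages (0.66 and −0.50), and *Fgfr2* at P15 (−0.14) is the only open dot.

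*Fgf4* (ENSMUSG00000050917, GRCm38 chromosome 7, 144847367 to 144865243) is a protein-coding gene, as are all 10, for the FGF that naïve cells make for themselves, and it fell the most of the 10 genes at both passages. Its level was 166 and 158 CPM in the naïve P5 libraries and 173 and 149 CPM in naïve P15. In primed cells *Fgf4* was at 39.9 and 43.8 CPM at P5 and 3.33 and 3.98 CPM at P15, with 0 counts in MEFs. The naïve groups overlapped each other, both primed groups lay below them, and primed P15 lay far below primed P5. The log2 fold change was −1.93 ± 0.052 (SE, edgeR adjusted p = 1.38e-23) at P5, a 3.80-fold lower level. At P15 it was −5.47 ± 0.11 (edgeR adjusted p = 5.19e-32), a 44.2-fold lower level. The P15 values rest on 58 and 70 counts, and counting error alone exceeded the SE given for P15. The effect of state differed between passages by −3.53 ± 0.14 on the log2 scale (edgeR adjusted p = 2.45e-19). The summed level of the 8 naïve marker genes also fell between these groups, from 2111 to 2550 CPM in naïve libraries to 239.7 and 241 CPM in primed P5 libraries and 115 and 112 CPM in primed P15 libraries. Its part in the *Fgf4* values was not tested.

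The other FGF ligands moved in both directions. Of 17 ligand genes listed besides *Fgf4*, 11 were testable at P5, with 6 up and 2 down in primed cells (median log2 fold change 0.73). At P15, 12 were testable, with 5 up and 3 down (median 0.50). The median over all genes tested was 0.0078 at P5 and −0.0039 at P15. Of all genes, 31.2% were up and 31.1% down at P5, and 28.2% and 28.4% at P15. *Fgf8*, a ligand of the early primitive streak, was at 1.74 and 1.83 CPM in naïve P5 and 1.10 and 1.34 CPM in naïve P15, against 26.8 and 25.3 CPM in primed P5 libraries and 105 and 89.8 CPM in primed P15. It rose by 3.90 ± 0.15 at P5 and 6.29 ± 0.15 at P15 on the log2 scale (edgeR adjusted p = 5.29e-20 and 6.67e-30), and the P15 effect was the larger one by 2.41 ± 0.30 (edgeR adjusted p = 1.51e-07). The naïve *Fgf8* levels rest on few counts, and counting error alone exceeded the SE given for P5 and for P15. *Fgf17*, a close relative of *Fgf8*, went the other way, with 33.2 to 42.4 CPM in the naïve libraries and 5.17 to 8.63 CPM in the primed ones. Its log2 fold change was −2.65 ± 0.11 at P5 and −2.32 ± 0.11 at P15 (edgeR adjusted p = 4.79e-19 and 6.15e-20). *Fgf7*, a ligand usually made by mesenchyme, was at 10.9 to 19.7 CPM in naïve cells, 43.2 to 66.7 CPM in primed cells and 32.9 CPM in MEFs. It rose by 1.26 ± 0.078 and 2.56 ± 0.098 (edgeR adjusted p = 8.43e-15 and 5.03e-23). *Fgf5*, a marker of the primed state, was at 1.44 to 1.77 CPM in naïve and 120.4 to 143 CPM in primed cells. The ligands with the highest levels per kilobase of exon thus differed between the states. Of these 5 they were *Fgf4* (50.4 CPM per kb) and *Fgf17* (25.0 CPM per kb) in naïve P15 cells, and *Fgf8* (72.3) and *Fgf5* (57.1) in primed P15 cells, where *Fgf4* was at 1.14.

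**Figure D3:**
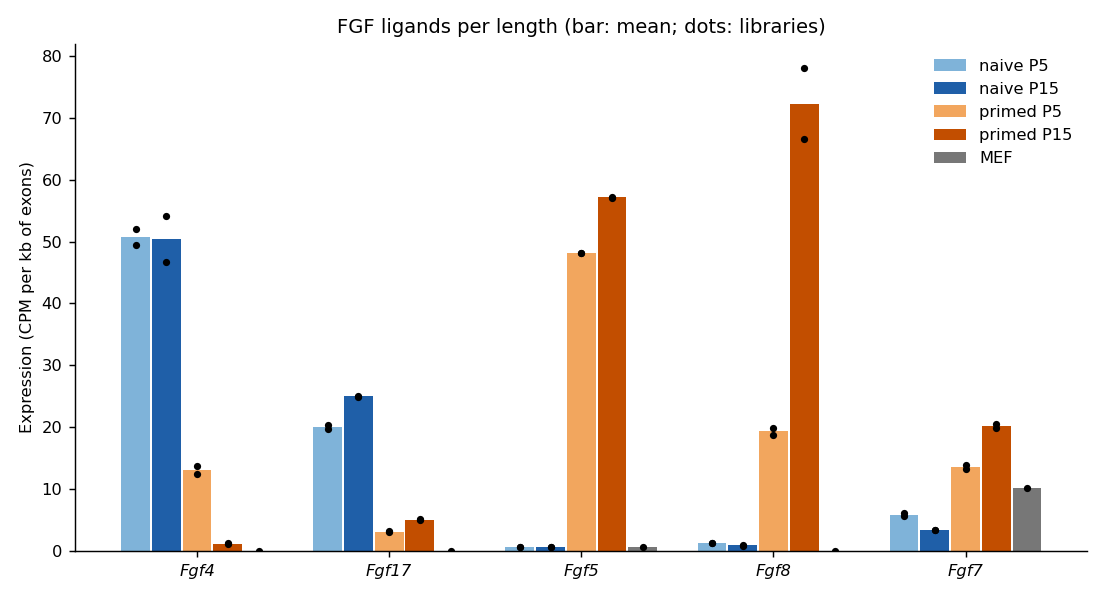
Mean level per kilobase of exon (bars, CPM per kb, linear axis from 0) and single libraries (dots) of 5 FGF ligands in the naïve, primed and MEF groups. *Fgf4* and *Fgf17* are highest in naïve cells, and *Fgf5* and *Fgf8* in primed cells, with *Fgf8* rising from 19.3 to 72.3 CPM per kb between primed P5 and P15.

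*Fgfr1* (ENSMUSG00000031565, chromosome 8, 25513654 to 25575718) was the more abundant receptor and was modestly higher in primed cells. It was at 147 CPM in both naïve P5 libraries and 159 and 157 CPM in naïve P15. For *Fgfr1*, primed libraries gave 217 and 207 CPM at P5 and 282 and 255 CPM at P15, with 401 CPM in MEFs. No groups overlapped, and the MEF library was above all of them. Primed over naïve, the log2 fold change was 0.56 ± 0.040 at P5 (edgeR adjusted p = 1.85e-13) and 0.75 ± 0.062 at P15 (edgeR adjusted p = 2.87e-13). The effects of state at the 2 passages differed by 0.21 ± 0.072, which did not pass (edgeR adjusted p = 0.0242, 95% interval 0.061 to 0.35). *Fgfr1* shares 164 exon bases with an antisense gene that had at most 9 counts in any library. The difference between passages passed in 3 alternatives, without the second primed P15 library (0.29, edgeR adjusted p = 0.00221), with the median feeder share taken off (0.38, edgeR adjusted p = 0.00819) and with no low-count filter (0.23, edgeR adjusted p = 0.00692).

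*Fgfr2* (ENSMUSG00000030849, chromosome 7, 130162451 to 133123350) passed the test in primed cells at P5 and not at P15, and the difference between passages itself passed. Its level was 20.9 and 20.2 CPM in naïve P5 and 16.5 and 15.9 CPM in naïve P15. Primed levels of *Fgfr2* were 44.4 and 40.9 CPM at P5 and 15.7 and 13.9 CPM at P15, with 46.1 CPM in MEFs. The primed P5 libraries lay just under the MEF level, and the primed P15 libraries lay just under the naïve ones of the same passage. Its log2 fold change was 1.09 ± 0.077 at P5 (edgeR adjusted p = 2.14e-13), and −0.14 ± 0.13 at P15 (edgeR adjusted p = 0.328, 95% interval −0.40 to 0.12). The P15 effect minus the P5 effect was −1.21 ± 0.14 on the log2 scale (edgeR adjusted p = 3.04e-08). The annotated span of *Fgfr2* is long and shares 314 exon bases with *Ctbp2* on the same strand, which had up to 4885 counts. How reads in the shared bases were counted is not given, and they may be missing from the *Fgfr2* counts. Per kilobase, *Fgfr2* was the lowest of the 10 genes in naïve P5 cells (1.99 CPM per kb), where *Fgfr1* was at 14.9.

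Among 10 other receptor and adaptor genes, 3 of 9 testable were up and 3 down in primed cells at P5 (median log2 fold change 0.041). At P15, 4 of 8 were up and 1 was down (median 0.37). The shares of all genes were 31.2% up and 31.1% down at P5, and 28.2% and 28.4% at P15. *Fgfr3* was at 3.78 and 3.96 CPM in naïve P5 and 18.5 and 15.6 CPM in primed P5. At P15 it was at 3.76 and 3.77 CPM in naïve and 5.85 and 7.44 CPM in primed cells. Among naïve and primed cells it thus had its highest level in primed P5, as *Fgfr2* did. Its log2 fold changes were 2.18 ± 0.14 and 0.81 ± 0.22 (edgeR adjusted p = 4.31e-14 and 0.00146), and they differed by −1.35 ± 0.26 (edgeR adjusted p = 0.000103). *Fgfr4* stayed at or below 2.42 CPM in all naïve and primed libraries. In primed cells it was at 0.17 to 0.80 CPM at P5 and at 0.23 and 0.28 CPM at P15, where 3 counts correspond to 0.17 CPM. Its log2 fold change was −2.22 ± 0.42 at P5 (edgeR adjusted p = 3.46e-05) and −2.83 ± 0.52 at P15. At P15 it met the count filter only through the naïve libraries, so the test there adds nothing to these levels. *Fgfrl1*, a receptor without a kinase domain, rose by 1.23 ± 0.078 and 0.95 ± 0.10 (edgeR adjusted p = 1.52e-14 and 2.69e-10). *Flrt3*, a membrane protein that binds FGF receptors, rose by 1.24 ± 0.090 and 0.39 ± 0.13 (edgeR adjusted p = 3.68e-13 and 0.0074).

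The Sprouty proteins, which block signalling between receptor and Ras, split into 2 patterns. *Spry2* (ENSMUSG00000022114, chromosome 14, 105891947 to 105896819) was at 148 and 141 CPM in naïve P5 and 148 and 153 CPM in naïve P15. In primed cells *Spry2* was at 62.5 and 66.7 CPM at P5 and 95.1 and 100.1 CPM at P15, with 79.3 CPM in MEFs. It was lower in primed cells at both passages, with log2 fold changes of −1.13 ± 0.048 and −0.63 ± 0.064 (edgeR adjusted p = 1.09e-18 and 5.92e-11). The loss was smaller at P15 by 0.51 ± 0.079 (edgeR adjusted p = 5.10e-06). *Spry4* (ENSMUSG00000024427, chromosome 18, 38586247 to 38601415) was at 70.5 and 69.2 CPM in naïve P5 and 60.9 and 68.0 CPM in naïve P15. For *Spry4*, primed libraries gave 24.1 and 27.7 CPM at P5 and 25.9 and 29.1 CPM at P15, with 44.6 CPM in MEFs. The primed groups of *Spry4* overlapped and both lay under the naïve ones, at 37.1% and 42.6% of the naïve mean of the same passage. In log2 terms this was a change of −1.40 ± 0.067 at P5 and −1.24 ± 0.087 at P15 (edgeR adjusted p = 2.06e-17 and 3.09e-15). Its effects at the 2 passages differed by 0.18 (edgeR adjusted p = 0.248, 95% interval −0.057 to 0.41).

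*Spry1* (ENSMUSG00000037211, chromosome 3, 37639947 to 37644598) was the gene of the 10 whose call changed direction between passages. It was at 27.8 and 32.8 CPM in naïve P5 and 37.6 and 36.5 CPM in naïve P15. Primed levels of *Spry1* were 46.1 and 47.3 CPM at P5 and 28.0 and 24.8 CPM at P15, with 138 CPM in MEFs. Primed libraries were thus above naïve ones at P5 and below them at P15. The log2 fold change was 0.66 ± 0.074 at P5 (edgeR adjusted p = 4.31e-09) and −0.50 ± 0.095 at P15 (edgeR adjusted p = 1.94e-05), a difference of −1.14 ± 0.12 (edgeR adjusted p = 5.42e-09). *Spry1* shares 710 exon bases with a gene on the opposite strand that had at most 9 counts. The treatment of reads in these bases is not given either.

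*Spry1*, *Fgfr1* and *Fgfr2* were also the genes of the 10 with a MEF level above every naïve and primed library. The MEF level multiplied by the median fibroblast marker ratio of a library came to 30.7% to 68.1% of the measured *Spry1* level in the naïve P5, naïve P15 and primed P5 libraries. It came to 112% and 115% in the primed P15 libraries, where it exceeded what was measured. For *Fgfr2* it was 10.6% to 68.1% and for *Fgfr1* 18.8% to 45.9%. *Spry4* reached 39.0%, the other 6 genes at most 18.9%, and *Fgf4* was at 0 in MEFs. With that median share taken off the counts, *Spry1* had 0 counts left in both primed P15 libraries and 176 and 182 in naïve P15. Its P5 log2 fold change was then 1.22 (edgeR adjusted p = 8.81e-07). With the lowest marker ratio taken off instead, an alternative chosen after the data were seen, *Spry1* kept 429 and 379 counts in primed P15. Its changes were then 0.87 at P5 and −0.37 at P15 (edgeR adjusted p = 4.31e-09 and 0.00416). Under the median share, *Fgfr1* at P15 was 1.14 (edgeR adjusted p = 4.26e-07), *Fgfr2* at P15 was −0.65 (edgeR adjusted p = 0.0227), and the difference between passages of *Fgfr2* was −1.97 (edgeR adjusted p = 6.64e-06). Between primed passages *Fgfr2* was then −2.80 (edgeR adjusted p = 1.30e-07).

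**Figure D4:**
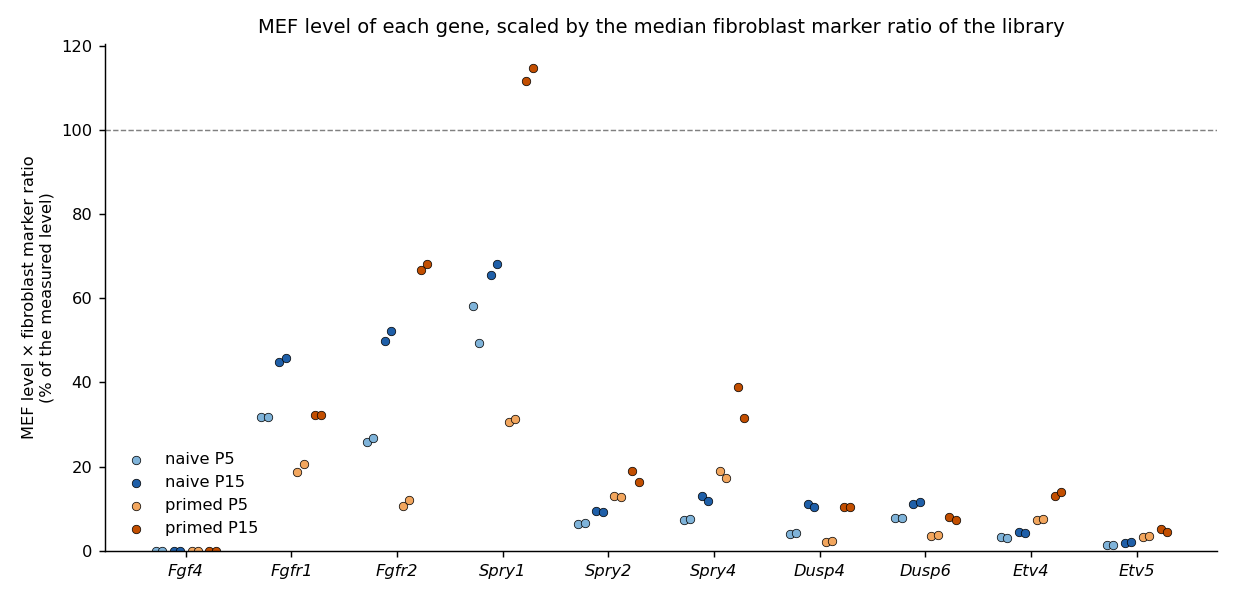
For each gene and naïve or primed library, the MEF level times the library's median fibroblast marker ratio, as a percentage of the level measured in that library. The dashed line marks 100%, which only *Spry1* in both primed P15 libraries passes (112% and 115%), while *Etv5* stays between 1.3% and 5.2% and *Fgf4* is at 0.

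*Dusp6* and *Dusp4*, phosphatases that remove the activating phosphates from ERK, were higher in primed cells. So was *Dusp7*, unlike the other Dusp phosphatases of the inhibitor list described below. *Dusp6* (ENSMUSG00000019960, chromosome 10, 99263231 to 99267489), the cytoplasmic one, was at 115 and 113 CPM in naïve P5 and 120.4 and 117 CPM in naïve P15. In primed cells *Dusp6* was at 220.3 and 210.2 CPM at P5 and 212 and 209 CPM at P15, with 75.9 CPM in MEFs. The primed groups overlapped and lay well above all naïve libraries. Its log2 fold change was 0.95 ± 0.041 at P5 (1.94-fold) and 0.82 ± 0.061 at P15 (1.76-fold, edgeR adjusted p = 1.52e-18 and 2.45e-14). The difference between passages was −0.12 (edgeR adjusted p = 0.204, 95% interval −0.26 to 0.026). It was the most abundant of the 10 genes per kilobase in primed cells, at 68.7 CPM per kb in P5 and 67.3 in P15.

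*Dusp4* (ENSMUSG00000031530, chromosome 8, 34807297 to 34819894), the nuclear phosphatase, fell with passage in both states. Its level was 78.0 and 74.6 CPM in naïve P5 and 44.2 and 47.8 CPM in naïve P15. For *Dusp4*, primed libraries gave 127 and 124 CPM at P5 and 60.1 and 54.1 CPM at P15, with 27.4 CPM in MEFs. Each primed group was above the naïve group of its passage, but primed P15 was below naïve P5. The log2 fold change of primed over naïve cells was 0.75 ± 0.046 at P5 (edgeR adjusted p = 7.65e-15) and 0.30 ± 0.081 at P15 (edgeR adjusted p = 0.00146). These differed by −0.43 ± 0.091 (edgeR adjusted p = 0.000329), a call lost with the median feeder share taken off (−0.36, edgeR adjusted p = 0.0185). The P15 call was not kept by DESeq2's Wald test (0.29, adjusted p = 0.0181), without the first naïve P15 library (0.22, edgeR adjusted p = 0.0438) or without the first primed P15 library (0.25, edgeR adjusted p = 0.0227).

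*Etv4* and *Etv5*, ETS factors of the PEA3 group that FGF signalling induces in many tissues, were lower in primed cells. The other member of that group, *Etv1*, named after its values were seen, went the other way. It was at no more than 16.1 CPM in the naïve libraries and at 56.3 to 72.3 CPM in the primed ones. It rose by 2.16 ± 0.084 at P5 and 2.17 ± 0.096 at P15 on the log2 scale (edgeR adjusted p = 1.25e-19 and 4.16e-21). *Etv5* (ENSMUSG00000013089, chromosome 16, 22381309 to 22439719) was at 389.8 and 375 CPM in naïve P5 and 402 and 381 CPM in naïve P15. Primed levels of *Etv5* were 139.6 and 135 CPM at P5 and 197 and 205 CPM at P15, with 44.8 CPM in MEFs. The naïve groups overlapped, and primed P15 lay between primed P5 and the naïve libraries. Its log2 fold change was −1.45 ± 0.038 at P5 and −0.97 ± 0.058 at P15 (edgeR adjusted p = 7.80e-24 and 3.49e-17). The loss was smaller at P15 by 0.49 ± 0.066 (edgeR adjusted p = 5.35e-07). *Etv4* (ENSMUSG00000017724, chromosome 11, 101769742 to 101785371) was at 77.6 and 83.6 CPM in naïve P5 and 89.2 and 93.7 CPM in naïve P15. In primed cells *Etv4* was at 30.5 and 31.5 CPM at P5 and 38.4 and 32.3 CPM at P15, with 22.1 CPM in MEFs. It fell to 38.5% of the naïve mean at P5 and 38.7% at P15 (log2 fold change −1.35 ± 0.061 and −1.38 ± 0.080, edgeR adjusted p = 5.32e-18 and 1.38e-17). These effects differed by −0.019 (edgeR adjusted p = 0.914, 95% interval −0.23 to 0.19). Per kilobase, *Etv5* had the highest level of the 10 genes in naïve cells (93.3 CPM per kb in P5 and 95.4 in P15), ahead of *Spry2* (69.1 and 72.1) and *Fgf4* (50.8 and 50.4). In primed P15 cells the order was *Dusp6* (67.3), *Etv5* (48.9) and *Spry2* (46.8), and *Fgf4* (1.14) stood last.

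Passage was compared within each state, over the same 8 libraries as above. Between naïve P15 and naïve P5, 1 of the 10 genes passed, where 9.22% of all 15683 genes tested passed and 5.01% were lower. This was *Dusp4*, with a log2 fold change of −0.73 ± 0.063 (edgeR adjusted p = 5.14e-06). The other 9 naïve changes lay between −0.34 (*Fgfr2*, edgeR adjusted p = 0.0312) and 0.29 (*Spry1*, edgeR adjusted p = 0.0373). *Fgfr2* passed with the median feeder share taken off (−0.81, edgeR adjusted p = 0.00460). With the replicate number as a block, *Fgfr2* (−0.34, edgeR adjusted p = 0.00914), *Spry1* (0.29, edgeR adjusted p = 0.00350) and *Etv4* (0.18, edgeR adjusted p = 0.00592) passed too. Between primed P15 and primed P5, 7 of the 10 passed, 3 higher and 4 lower, where 47.1% of all 15957 genes did (24.3% higher and 22.8% lower). Groups of the 2 passages did not overlap for 8 of the 10 genes in each state, and for 58% of all genes in naïve and 78.1% in primed cells. Lower at primed P15, with their log2 fold changes, were *Fgf4* (−3.54 ± 0.12), *Fgfr2* (−1.56 ± 0.092), *Dusp4* (−1.17 ± 0.062) and *Spry1* (−0.85 ± 0.081, edgeR adjusted p = 4.38e-19, 5.17e-14, 5.70e-15 and 8.74e-10 in that order). *Spry2*, *Etv5* and *Fgfr1* were higher by 0.56 ± 0.061, 0.52 ± 0.052 and 0.30 ± 0.053 (edgeR adjusted p = 1.08e-08, 2.73e-09 and 2.14e-05). The *Fgfr1* change was 0.17 with library size alone (edgeR adjusted p = 0.00658) and did not pass with the median feeder share taken off (0.26, edgeR adjusted p = 0.0106). Those that did not pass in primed cells were *Spry4*, *Dusp6* and *Etv4*, with changes of 0.057, −0.062 and 0.16 (edgeR adjusted p = 0.622, 0.293 and 0.118). *Etv4* passed without the second primed P15 library (0.29, edgeR adjusted p = 0.00351). The test of whether the effect of state differed between passages, which uses the same 8 libraries, was passed by 6 of the 10 genes, 2 higher and 4 lower. It was passed by 24.1% of all 16926 genes tested, 13.3% higher and 10.8% lower. Fibroblast marker genes moved with passage as well, with 13 of 24 higher in naïve P15 and 19 of 24 higher in primed P15 than at P5, and 1 of 24 lower in each. Their part in these changes was not tested beyond the subtraction given above.

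Most kinases and adaptors between receptor and ERK passed the test at P5, with small changes. Of 20 such genes, 7 were up and 11 down in primed cells at P5 (median log2 fold change −0.18), and 7 up and 7 down at P15 (median −0.086). Over all genes 62.3% and 56.6% passed, and 31.1% and 28.4% were lower. *Gab1*, a docking protein that couples receptors to Ras, was at 247 to 253 CPM in the 4 naïve libraries. It was at 90.8 and 87.6 CPM in primed P5, 31.3 and 26.6 CPM in primed P15, and 42.9 CPM in MEFs. Its log2 fold change was −1.45 ± 0.041 at P5 and −3.12 ± 0.074 at P15 (edgeR adjusted p = 4.96e-23 and 1.29e-29). The P15 effect was the larger one (difference −1.65 ± 0.083, edgeR adjusted p = 1.83e-16), as for *Fgf4*. The kinase gene *Rps6ka1* was lower at both passages (−0.72 ± 0.044 and −1.14 ± 0.067). Of the Ras activators, *Sos1* was lower (−0.25 ± 0.055 and −0.67 ± 0.079) and *Sos2* higher (0.76 ± 0.095 and 0.69 ± 0.12), with edgeR adjusted p between 1.77e-17 and 0.000209 for these 3 genes.

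Of 14 further inhibitors of the pathway, 8 were up and 5 down at P5 (median 0.44), and 7 up and 6 down at P15 (median 0.30). Among all genes, 31.2% were up and 31.1% down at P5, and 28.2% and 28.4% at P15. *Il17rd*, also called Sef, an inhibitor of FGF signalling, was at 50.8 to 64.0 CPM in naïve cells and 155 to 194 CPM in primed cells. It rose by 1.35 ± 0.046 and 1.83 ± 0.069 (edgeR adjusted p = 4.77e-21 and 3.44e-23). Of 5 other Dusp phosphatases in this list, 4 were lower at both passages and 1 was higher, *Dusp7*, named after its values were seen. *Dusp1*, which acts mainly on the stress kinases, was at 318 to 504 CPM in naïve cells and 53.9 to 87.0 CPM in primed cells (log2 fold change −3.18 ± 0.041 and −1.95 ± 0.063, edgeR adjusted p = 1.29e-31 and 2.61e-25). *Dusp5*, which acts on ERK (−1.82 ± 0.060 and −1.44 ± 0.089), and *Dusp2* (−1.41 ± 0.22 and −1.27 ± 0.24), both nuclear phosphatases, were lower as well, with edgeR adjusted p of at most 1.76e-05.

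Of 13 further transcriptional targets of ERK, 3 were up and 9 down at P5 (median −1.48), and 5 up and 7 down at P15 (median −0.34). Among all genes, 31.2% were up and 31.1% down at P5, and 28.2% and 28.4% at P15. The targets named next are immediate early genes, transcribed within minutes of a stimulus. *Fosb* was at 1303 and 1292 CPM in naïve P5 and 656 and 635 CPM in naïve P15. For *Fosb*, primed libraries gave 3.13 and 3.27 CPM at P5 and 103 and 111 CPM at P15 (log2 fold change −8.63 ± 0.059 and −2.61 ± 0.061, edgeR adjusted p = 3.28e-38 and 8.14e-30). The group means of *Fos* followed the same order (−5.89 ± 0.050 and −1.08 ± 0.059, edgeR adjusted p = 8.26e-36 and 2.08e-18). So did those of *Egr1* (−3.01 ± 0.036 and −0.58 ± 0.055, edgeR adjusted p = 3.10e-32 and 1.46e-11) and *Egr2* (−3.66 ± 0.10 and −2.68 ± 0.14, edgeR adjusted p = 5.16e-23 and 2.45e-19). At P5, counting error alone exceeded the standard errors given for *Fosb*, *Fos* and *Egr2*. The effect of state was higher at P15 than at P5 for 8 of the 13 targets and lower for 0, where 13.3% and 10.8% of all genes passed in those directions. *Spry2* and *Etv5* were on that side too, *Spry4* and *Etv4* did not pass, and *Spry1* and *Dusp4* went the other way.

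**Figure D5:**
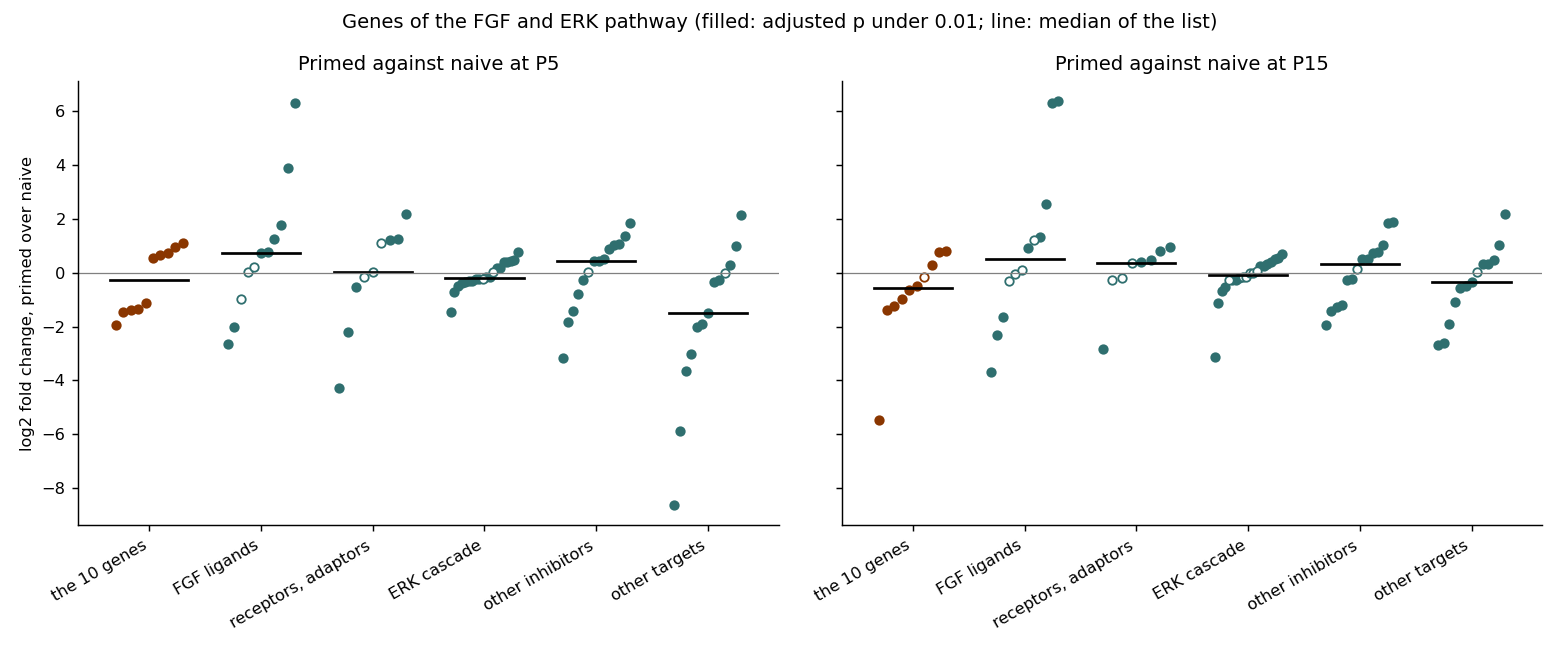
Log2 fold change of primed over naïve cells at P5 (left) and P15 (right) for the 10 genes and 5 other lists of the pathway, with 1 dot per tested gene, filled for an adjusted p under 0.01, and a line for the list median. The median of the further ERK targets lies at −1.48 at P5 and −0.34 at P15, with *Fosb* lowest at P5 (−8.63), and *Fgf4* is lowest of all dots at P15 (−5.47).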

How the data were processed

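RNA levels were measured in 8 libraries of naïve and primed cells and 1 MEF library. Per the labels and the study's methods, the authors trimmed reads with Cutadapt, aligned them with HISAT2 to mm10 and deposited raw counts per Ensembl gene from featureCounts. HISAT2 was set to report multiple alignments per read. Versions, and the strand setting and treatment of multiple alignments in counting, are not given in the sources used here. All columns were mapped by name, and 92 spike-in rows held 0 counts. Of 54232 genes, 54165 were named and placed (GRCm38, 1-based) from GENCODE M21, and the 67 unnamed ones held at most 0.00527% of a library.

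Genes with at least 10 counts in at least 2 libraries of a comparison were scaled by TMM and tested with edgeR 4.0.16 (quasi-likelihood, Benjamini-Hochberg adjustment, threshold 0.01, R 4.3.3), on the 4 libraries of a contrast or, for the difference between passages, all 8. The 3-count floor was 0.143 to 0.209 CPM of the library total in naïve and primed libraries. Standard errors are on the log2 scale, and n is 2 per group. The code was tested on simulated data. Members and lists were chosen with earlier results of these data known. All 10 members were named, along with up to 4 genes per further list that passed at either passage with a mean of at least 1 CPM over the 8 libraries, ranked by absolute change, and at most the first 2 markers per list. *Dcn*, *Fbln5*, *Dusp7* and *Etv1* were named after their values were seen. Alternatives were DESeq2 1.42.0 (size factors and Wald test), library size alone, no count filter, all 8 libraries in 1 fit, a replicate block, feeder shares taken off and each replicate left out.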

Additional observations from a re-analysis of the deposited data

Results flagged for a closer look

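The effect of the primed state differed between P5 and P15 for 6 of the 10 genes by edgeR's quasi-likelihood test of that difference (P15 minus P5, log2 scale). *Fgf4* had a difference of −3.53 and thus lost more at P15, *Fgfr2* of −1.21 and *Spry1* of −1.14, both higher in primed cells at P5 and not at P15, and *Dusp4* of −0.43, with a smaller gain at P15. *Spry2* (0.51) and *Etv5* (0.49) were less reduced at P15. In primed cells alone each of the 6 also passed between the passages, and in naïve cells alone *Dusp4* did, joined by *Fgfr2* and *Spry1* with the replicate number as a block. For *Spry1* and *Fgfr2* the MEF levels, 138 and 46.1 CPM, were above all naïve and primed libraries, and for *Fgf4* the MEF library had 0 counts. Groups of 2 libraries were too small for a search for outlying libraries.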

How the results depend on the processing

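Over the 650 values of single genes under an alternative, 618 kept their direction and their side of the threshold of 0.01, 16 reversed, 11 came to pass and 5 no longer passed. No gene called in the report reversed. The reversals touched small values that had not passed. For *Etv4*, the difference between passages was 0.0073 with no low-count filter, and it reversed with 3 single libraries left out (range −0.15 to 0.11). Between naïve passages, *Fgf4* was 0.11 with the median feeder share taken off and 0.028 with the lowest (chosen after seeing the data), and −0.13 to 0.10 with single libraries left out. *Fgfr1* was −0.099 and *Spry1* −0.078 with the median feeder share taken off, and *Etv5* was −0.0093 (without the first naïve P15 library) to 0.078 with single libraries left out. Between primed passages, *Spry4* was −0.074 with library size alone, −0.079 with the median feeder share taken off and −0.067 to 0.14 with single libraries left out (below 0 without the first primed P5 or the second primed P15 library), and *Dusp6* was 0.076 with the median feeder share taken off. The cause was not tested. *Dusp6* came to pass with library size alone, for the difference between passages (−0.23, edgeR adjusted p = 0.00986) and between primed passages (−0.19, edgeR adjusted p = 0.00149). Between naïve passages, 1446 genes were called, against 551 with no low-count filter, and the 10 genes gave 2 calls with the median feeder share taken off and 1 to 2 with single libraries left out (2 without the second naïve P5 library, where *Spry1* was 0.41, edgeR adjusted p = 0.00520). With library size alone, the median log2 fold change of all genes was 0.21 at P5, 0.10 at P15, −0.11 for the difference and −0.13 between primed passages, and the share of calls that were higher was 65.8%, 58.8%, 35.2% and 34.2%, against 50.1%, 49.9%, 55.0% and 51.5%, while the 10 genes kept 5 higher and 5 lower at P5 and 3 and 6 at P15.

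Replicate numbers are shared across groups, but the labels do not say that they mark a batch, and deviations of same-numbered libraries correlated at −0.13 (P5) and −0.19 (P15) between states and at 0.16 between passages of either state, over 10001 genes. With the replicate number as a block, the naïve passage comparison called 2783 genes and 4 of the 10 (*Fgfr2*, *Spry1* and *Etv4* besides *Dusp4*), and the block changed no other call of the 10. With the numbers crossed, chosen after seeing the data, 10675 genes were called at P5 and 9477 at P15, against 10225 and 7836 with the block and 10274 and 8899 without.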
